A study of Mus musculus with 16 samples.

Results

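Tight junction genes were followed through the early mouse kidney in 9 genes: the claudins Cldn3, Cldn4, Cldn6, Cldn7 and Cldn8, occludin (Ocln), the scaffold proteins Tjp1 (ZO-1) and Tjp3 (ZO-3), and cingulin (Cgn). Every probe set with one of these as its single gene symbol in the platform's annotation was taken, which gave 14 of the 45101 probe sets and 9 of the 18193 genes on the array. A gene is described by its probe set with the highest mean log2 signal over the 16 arrays, and Cldn3 (4 probe sets), Ocln and Cgn (2 each) were checked through the others. All embryos were at E11.5, a stage at which the kidney rudiment holds an epithelial tube, the ureteric bud (UB), surrounded by the metanephric mesenchyme (MM). Wild-type tissue separated by hand after collagenase (0.5 mg/ml, 37 °C) gave 4 UB samples, pools of 3 to 9 buds, and 3 MM samples, each of individual mesenchymes. Laser capture of sections 7 µm thick gave 4 wild-type MM samples from kidney rudiments, pooling 3 to 4 mesenchymes, and 5 MM samples of Hoxa11/Hoxd11 double nulls from urogenital ridges, whose pooling the labels do not state. The labels name no allele or treatment common to the nulls and their controls, and no label read here names a strain or litter.

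Tight junctions seal the space between neighbouring epithelial cells near their apical surface. Claudins and occludin are membrane proteins at the contact between neighbouring cells. Claudins form the strands and set which ions pass, while ZO proteins and cingulin lie beneath the membrane and tie the strands to actin. In the kidney the bud gives rise to the collecting duct, a tight epithelium, whereas uninduced mesenchyme has no such barrier; ZO-1 is also found at other cell contacts, outside epithelia. These are background facts, not results of these arrays.

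The values are deposited MAS5 signals, linear brightness values scaled to 1 mean on every array, and array medians ran from 112.7 to 209.2. The labelled tissues matched their defining genes: summed nephron progenitor markers (11 genes) reached 95108 to 116915 in hand-dissected MM and 1603.4 to 2554 in UB, and summed bud markers (17 measured of 18 listed) reached 249898 to 301821 in UB and 4857 to 7613.9 in hand-dissected MM. Hoxa11 had a signal of 709 ± 147 (SD, n = 4) in the wild-type captures and 124 ± 44.5 (SD, n = 5) in the null captures, without overlap. Hoxd11 had 435 ± 115 and 341 ± 121, which overlap; the position of its probe set relative to the deleted part is unknown here. Among the captures, wild-type replicate 3 held the least bud signal, null replicate 5 held coelomic and gonadal transcripts, and null replicate 1 correlated least with its group (median r 0.896, against 0.928 to 0.933 for the others). Values without these arrays are therefore given beside several of the member results.

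The first comparison asked which members mark the bud rather than the mesenchyme when both were dissected by hand. Of the 9 members, 8 were higher in UB and none lower (limma, adjusted p below the threshold of 0.05 after Benjamini-Hochberg adjustment), where 12.4% of all 23851 probe sets tested were called higher. The exception was Tjp1. A filter on low signals removed no member here. Apart from Cgn and Tjp1, the members passed it through UB, with at most 1 MM array above its median. In such bulk samples, fewer cells of a type and less RNA per cell cannot be told apart. The same 8 members had every UB array above every MM array, as had 16.2% of all probe sets tested. The median log2 difference was 6.44 over the members and 0.02 over all probe sets tested, on the scale of log2(signal + 36.3), which understates the change of dim genes.

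**Figure D1:**
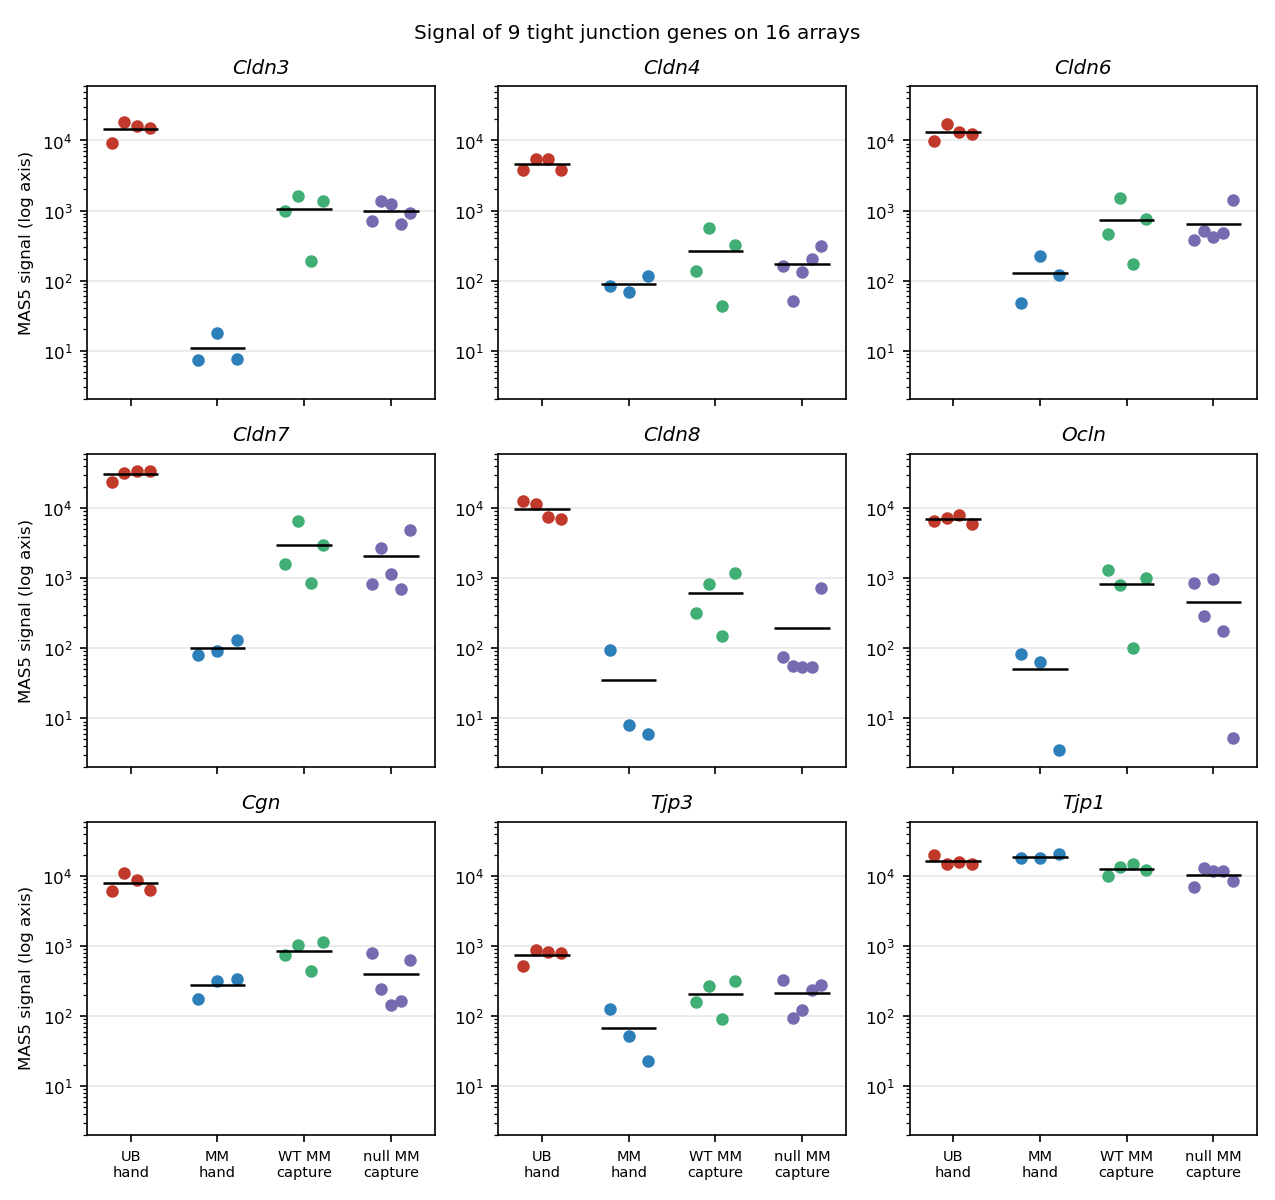
Deposited MAS5 signal (log axis) of the 9 genes on each of the 16 arrays: 4 of ureteric bud (UB hand), 3 of hand-dissected mesenchyme (MM hand), 4 of wild-type captures and 5 of null captures. Points are arrays, in replicate order from left to right, and lines are group means. Tjp1 is the only gene of the 9 whose hand-dissected mesenchyme arrays reach the level of the bud.

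Cldn7, one of the claudins of the collecting duct, had UB signals of 23476.3, 32019.7, 33699.8 and 34112.4 and MM signals of 79, 92 and 130.5. Every MM array lay below its own array's median for this gene, so the MM level is a dim one. The log2 difference was 7.82 ± 0.23 (SE; limma, adjusted p = 3.02e-09). Cldn3 gave UB signals of 9279.5, 18246.6, 16063.9 and 14861 and MM signals of 7.3, 17.8 and 7.5, again with no MM array above its median. It was higher in UB by 8.24 ± 0.26 in log2 signal (SE; limma, adjusted p = 4.21e-09). The remaining Cldn3 probe sets gave 8.01, 7.03 and 5.11, all higher in UB; all 4 interrogate the same gene and their names (_a_at and _x_at) mark probes that can match several transcripts.

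Cldn8, a claudin of the distal nephron and collecting duct, had 12894.1, 11570, 7623.5 and 7067.6 in UB and 93.2, 7.9 and 6 in MM. One of the MM arrays, replicate 5, lay above the others, and all remained below their medians. UB exceeded MM by 7.25 ± 0.39 in log2 signal (SE; limma, adjusted p = 1.28e-07). Cldn6, a claudin typical of embryonic epithelia, had 9814.8, 17434.6, 13312.5 and 12498.1 in UB and 48.5, 220.6 and 119.2 in MM. Replicate 6 was the 1 MM array in which Cldn6 exceeded the array's median, and the log2 difference was 6.44 ± 0.34 (SE; limma, adjusted p = 1.28e-07).

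Cldn4 is the chromosomal neighbour of Cldn3 and a component of collecting duct junctions. Its UB signals were 3847.3, 5382.9, 5373.2 and 3818.6, and its MM signals were 84, 69.3 and 115.1. The groups did not overlap, and the log2 difference was 5.20 ± 0.24 (SE; limma, adjusted p = 4.09e-08). Neither levels nor differences are ranked across genes here, since each probe set has its own response and several MM values are at background.

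Occludin, a four-pass membrane protein of the MARVEL family, had 6581.7, 7365.2, 8140.2 and 5915.7 in UB and 84.2, 62.7 and 3.5 in MM. In log2 signal the difference was 6.48 ± 0.34 (SE; limma, adjusted p = 1.19e-07), and the second Ocln probe set gave 5.99. The UB arrays spanned a narrow range, while the MM arrays were all dim and spread widely on the log scale.

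The cytoplasmic members divided. Tjp1, the scaffold ZO-1, had 19669.3, 14779.7, 15866 and 14705.8 in UB and 17977.9, 18131.3 and 20780.8 in hand-dissected MM, with overlap. Its log2 difference was -0.23 ± 0.15 (SE; limma, adjusted p = 0.299), with a 95% interval from -0.56 to 0.10 that does not reach a 2-fold change in either direction. With array weights it was called lower in UB (-0.31, limma, adjusted p = 0.0367). Its signal was among the bright ones in both tissues, above the array's median on every array of either.

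Tjp3, the scaffold ZO-3, had 514.2, 873.2, 810.4 and 807.3 in UB and 125.5, 51.4 and 23.1 in MM. These signals did not overlap and gave a log2 difference of 3.03 ± 0.34 (SE; limma, adjusted p = 4.96e-05). Cingulin, which links ZO proteins to the actomyosin ring, had 6043.7, 11017.5, 8765.8 and 6248.4 in UB and 173.7, 317.1 and 333.5 in MM. All 3 MM arrays exceeded their medians for Cgn, and its log2 difference was 4.69 ± 0.29 (SE; limma, adjusted p = 3.50e-07). The second Cgn probe set was too dim to be tested, with mean signals of 85.0 in UB and 44.4 in MM that overlapped.

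The sizes of these differences moved with the handling of dim values and with the mesenchyme used. The log2 difference of Cldn3 ran from 4.05 to 10.33 over 21 alternatives, and that of Cldn8 from 4.21 to 9.04. All 8 members kept their direction and call in each alternative in which they were tested. The lowest of these values came from setting UB against the wild-type captures, where tissue and isolation cannot be told apart: there 8 members were again higher (12.6% of all probe sets tested), with log2 differences from 1.77 for Tjp3 to 4.44 for Cldn6. Tjp1 there had a log2 difference of 0.38 ± 0.16 (SE; limma, adjusted p = 0.0860), the opposite sign to that against hand-dissected MM, with every UB array above every capture. RNA quality also differed: the mean 3' to 5' signal ratio of Gapdh was 8.72 in UB and 42.5 in hand-dissected MM, whereas that of Actb was 13.1 and 13.8, and the part of this in the members' differences was not tested.

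**Figure D2:**
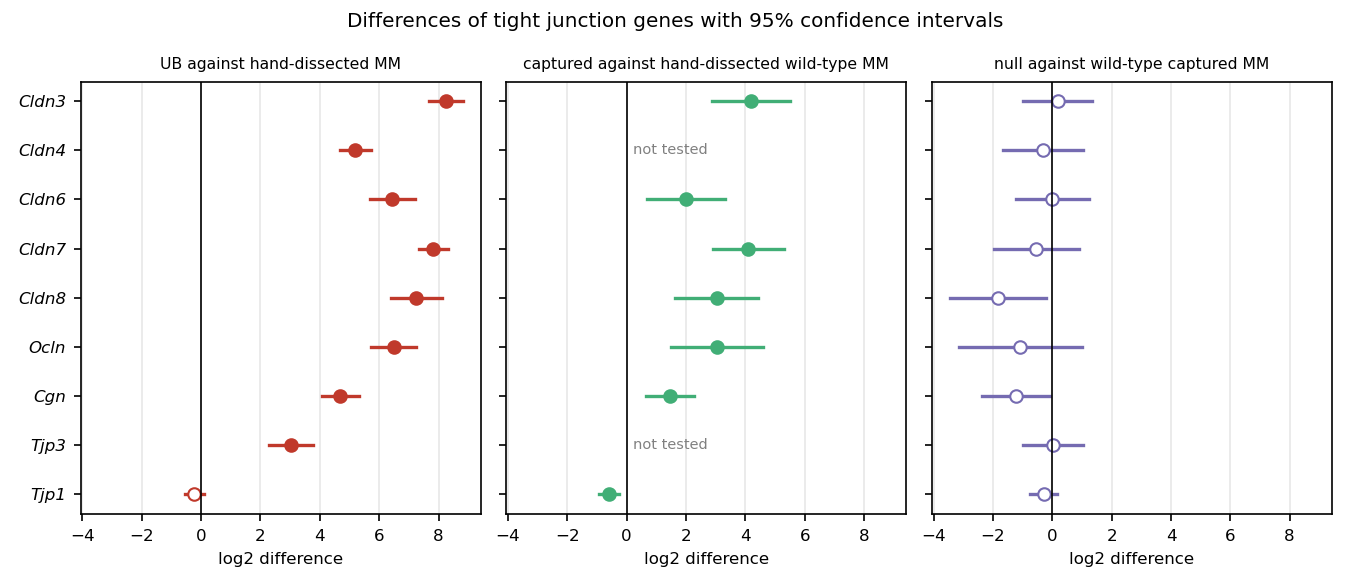
Log2 differences of the 9 genes with their 95% confidence intervals in the 3 comparisons. Filled points passed an adjusted p of 0.05 (limma), open points did not, and "not tested" marks genes removed by the filter on low signals. The 8 genes higher in the bud reach from 3.03 to 8.24, and in the null comparison all 9 points are open.

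Because 8 members moved together between the tissues, the bases before their transcription starts are shown for 3 claudins and Tjp3, together with an E-box, CACCTG, that repressors of the Snail and Zeb families are known to bind in epithelial genes. Sequences are from RefSeq (GRCm38.p6), 250 bases upstream, 5′ to 3′ on the gene's strand, with capitals marking the E-box as CACCTG or its reverse complement CAGGTG. Cldn3 lies at chr5:134985964-134986213 (plus strand), Cldn4 at chr5:134946935-134947184 (minus strand), Cldn6 at chr17:23679115-23679364 (plus strand) and Tjp3, from the second of its starts, at chr10:81291582-81291831 (minus strand).
Cldn3: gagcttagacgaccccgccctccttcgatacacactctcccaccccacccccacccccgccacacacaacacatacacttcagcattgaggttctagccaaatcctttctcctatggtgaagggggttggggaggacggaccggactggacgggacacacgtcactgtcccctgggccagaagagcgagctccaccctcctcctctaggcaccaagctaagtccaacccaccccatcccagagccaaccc
Cldn4: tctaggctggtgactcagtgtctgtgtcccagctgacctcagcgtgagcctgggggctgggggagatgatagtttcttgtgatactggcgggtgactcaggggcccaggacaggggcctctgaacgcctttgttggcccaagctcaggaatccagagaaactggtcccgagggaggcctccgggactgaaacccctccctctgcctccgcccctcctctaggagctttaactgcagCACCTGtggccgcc
Cldn6: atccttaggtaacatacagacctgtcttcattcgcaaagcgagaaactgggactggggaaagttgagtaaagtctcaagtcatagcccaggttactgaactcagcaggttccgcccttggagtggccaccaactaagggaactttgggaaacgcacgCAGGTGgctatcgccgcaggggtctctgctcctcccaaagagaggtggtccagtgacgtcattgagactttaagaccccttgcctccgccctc
Tjp3: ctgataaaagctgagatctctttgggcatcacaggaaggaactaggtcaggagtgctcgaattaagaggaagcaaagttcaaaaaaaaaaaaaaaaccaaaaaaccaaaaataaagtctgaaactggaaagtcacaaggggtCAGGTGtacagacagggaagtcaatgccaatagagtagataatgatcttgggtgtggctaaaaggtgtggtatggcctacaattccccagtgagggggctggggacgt

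In the windows from 250 bases before to 50 after a start, CACCTG on either strand occurred in 8 of 11 windows of the members, against 20.2% of all 32851 windows. It occurred in 6 of the 8 members with a window, for which no share over all genes was computed. Cldn7, Ocln and Tjp3 have 2 windows each, and those of Ocln overlap. Within the stretches printed the E-box begins at -14 in Cldn4, at -93 in Cldn6 and at -108 in Tjp3, counted from the start. That of Cldn3 begins at +32 and lies outside the stretch. Tjp1 and Cgn had no match, and Cldn8 has no entry. The grainyhead-like motif AACNNGTT, which reads the same on both strands, occurred in 1 of the 11 windows, that of Cgn (AACAGGTT, from -29 to -22), and in 4.2% of all windows. The 2 motifs share no site in these windows. A match is a description of letters and not of binding.

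The lists of regulators differed between the tissues in opposite directions. Over all 23851 probe sets tested, 2952 were called higher in UB and 2749 lower, against which the counts of the lists are to be read. A list gene could pass the filter on low signals through the tissue where it was high. The lists were also chosen with earlier results of these data known, so their counts are descriptions only. Of the claudin repressors and mesenchymal factors (7 tested of 8 listed), 7 were lower in UB and none higher. Foxc2 fell by 7.09 ± 0.59, Snai2 by 5.76 ± 0.42 and Zeb1 by 4.89 ± 0.35 in log2 signal (SE; limma, adjusted p from 1.12e-06 to 4.12e-06), with n = 4 and 3. Of the epithelial regulators (13 tested of 17 listed), 11 were higher and none lower, led by the splicing regulator Esrp1 at 8.72 ± 0.24 and the transcription factors Tfap2b at 5.80 ± 0.30 and Tfap2a at 5.42 ± 0.21. Grhl2, a grainyhead-like activator of claudin genes, was higher by 4.94 ± 0.22 in log2 signal (SE; limma, adjusted p = 3.52e-08). Of the claudin-associated membrane proteins (13 tested of 14), 12 were higher and none lower, with Mal at 7.73, Cdh1 (E-cadherin) at 7.07 and Mal2 at 6.18. Esrp1, Tfap2a, Tfap2b, Gata3, Cdh1 and Epcam of these lists are also among the bud markers.

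The other components of the junction did not divide as the 9 members did. In a list of 56 further tight junction and polarity genes, 41 were tested, and 13 were higher and 9 lower in UB, with a median log2 difference of 0.17. The largest differences were those of the MARVEL proteins Marveld3 (4.28 ± 0.21, SE) and Marveld2, or tricellulin (4.19 ± 0.25), which sits where 3 cells meet, and of the claudin Cldn23 (3.46 ± 0.42). Marveld2 follows Ocln directly in the order of coding genes (RefSeq, GRCm38.p6), and its mean signal was 9393 ± 1460 (SD, n = 4) in UB and 490 ± 155 (SD, n = 3) in hand-dissected MM. Among the 15 other claudins measured, 9 were tested, of which 3 were higher and 2 lower. Those lower were Cldn11 (-2.07 ± 0.29) and the endothelial claudin Cldn5 (-1.78 ± 0.42). Summed endothelial markers, a list that includes Cldn5 itself, were 4168 to 7271.8 in UB and 10134 to 16749 in hand-dissected MM. Cldn5 alone had mean signals of 639 in UB and 2260 in hand-dissected MM, and the part of endothelial cells was not tested.

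Cldn9, which follows Cldn6 directly in the order of coding genes, was bright in both tissues. Its signals were 3316.6, 6754.3, 6663.1 and 5080.9 in UB and 2495.6, 3082.6 and 3271.3 in hand-dissected MM, so every UB array was above every MM array, the closest pair by little. The log2 difference was 0.83 ± 0.26 (SE; limma, adjusted p = 0.0390), and the call was lost in 11 of 21 alternatives, among them leaving out any 1 of MM replicates 5, 6 and 7 or UB replicates 2, 3 and 4 (adjusted p 0.0730 to 0.121).

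**Figure D3:**
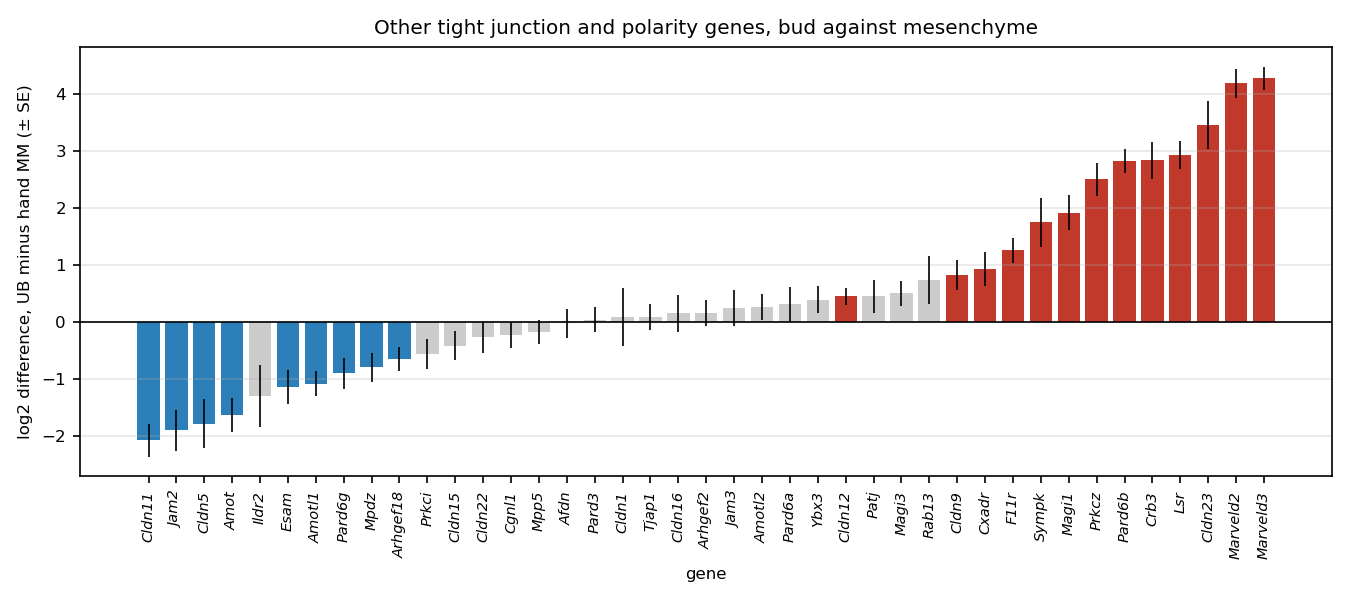
Log2 differences (± SE) between UB and hand-dissected MM for the tested genes of the list of further tight junction and polarity genes. Red bars were called higher in UB and blue bars lower (limma, adjusted p under 0.05), and grey bars passed neither. Marveld3 (4.28) and Marveld2 (4.19) stand at the right end and Cldn11 (-2.07) at the left.

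The captured wild-type MM had higher signals than hand-dissected MM for 6 of the 8 members that mark the bud. The second comparison, of captured with hand-dissected wild-type MM, shares its hand-dissected arrays with the first, so each is given by its own values. Of the 9 members 7 could be tested; 6 were higher in the captures and 1 lower (limma), where 16.3% of all 23611 probe sets tested were called higher and 8.51% lower. Cldn4 and Tjp3 did not pass the filter on low signals. Cldn3, Cldn7, Cldn8 and Ocln passed it through the captures alone, with no hand-dissected array above its median, and Cldn6 had 1 such array. Which members were tested thus depended on their being high in the captures, and the count called is not independent of that. The count called in either direction fell to 4 when wild-type capture 1, 2 or 4 was left out, because Cldn8 and Ocln then failed that filter and Cldn6 missed the threshold. All captures lay above all hand-dissected arrays for 5 members (21.9% of all probe sets tested) and below them for 1 (13.3%).

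Cldn3 had capture signals of 979, 1633.1, 189.2 and 1387, and its log2 difference from hand-dissected MM was 4.19 ± 0.59 (SE; limma, adjusted p = 0.00119). Cldn7 had 1587.1, 6627.9, 845 and 2971.1, a log2 difference of 4.10 ± 0.54 (SE; limma, adjusted p = 0.000858). In these probe sets of both claudins even the dimmest capture, replicate 3, exceeded all hand-dissected MM arrays. The other Cldn3 probe sets differed. They gave 3.73 (limma, adjusted p = 0.00235) without overlap and 2.61 (limma, adjusted p = 0.0294) with overlap, capture 3 at 57.7 and MM replicate 5 at 129.3. The dimmest Cldn3 probe set also overlapped and was not tested. Cldn8 had 320.1, 820.5, 151.1 and 1176.4 (log2 difference 3.04 ± 0.64, SE; limma, adjusted p = 0.00668). Ocln had 1329.5, 810.6, 101.8 and 1025.2 (log2 difference 3.04 ± 0.71, SE; limma, adjusted p = 0.0108). For these also, capture 3 was the lowest, and the groups did not overlap. The second Ocln probe set gave 1.89 (limma, adjusted p = 0.00909), also without overlap, and captures 3 and 4 were its lowest (173.2 and 172.3).

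Cgn had 754.4, 1051.7, 433.1 and 1144.1, a log2 difference of 1.46 ± 0.36 (SE; limma, adjusted p = 0.0144) that missed the threshold without MM replicate 5 (adjusted p = 0.0577). Cldn6 had 468.8, 1524.2, 170.9 and 757, and its lowest capture lay within the range of the hand-dissected arrays. Its log2 difference was 2.00 ± 0.60 (SE; limma, adjusted p = 0.0328), and the call was lost without capture 1, 2 or 4 or without MM replicate 5 or 7 (adjusted p up to 0.130). Cldn4 (137.6, 570.9, 43.5 and 321.3) and Tjp3 (158.5, 267.4, 90.8 and 312.7) overlapped with hand-dissected MM, and with no filter their log2 differences were 0.91 and 1.26 (limma, adjusted p = 0.405 and 0.128).

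Tjp1 went the other way. Its capture signals were 9852.4, 13279.5, 14668.9 and 12357.5, all below the lowest hand-dissected MM array, and its log2 difference was -0.61 ± 0.15 (SE; limma, adjusted p = 0.0153). The call was lost without MM replicate 7 (adjusted p = 0.0756). Without capture 3, the dimmest for the bud genes, the differences of the 6 higher members grew to between 1.74 (Cgn) and 4.84 (Cldn3), and all 7 calls held.

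Markers of the bud moved with the members in the captures. Expressed as a percentage of the mean UB signal, the median of the 8 members other than Tjp1 was 5.92, 12.0, 1.5 and 10.8% in wild-type captures 1 to 4, and that of the 17 bud markers was 7.00, 15.8, 5.06 and 20.8%. In the hand-dissected MM arrays the members' medians were 1.08, 1.2 and 0.661% and the markers' 1.67, 1.61 and 1.12%. Capture 3 was the lowest of the 4 for all 8 members and for 14 of the 17 markers. Of the bud markers, 14 of 16 tested were higher in the captures than in hand-dissected MM, where 16.3% of all probe sets tested were. Their median log2 difference was 2.45, and the 17 markers summed to 14744 to 74467 in the captures. A marker could pass the filter on low signals through the captures alone, so the count called is not independent of that. On each wild-type capture 16 of the 17 exceeded the array's median, against 9 to 10 on the hand-dissected arrays. Renal vesicle markers, a list that shares Lhx1 with the bud markers, had 4 of 9 tested higher and none lower (median 0.91). Their sums over 10 genes were 15954 to 33830 in the captures, 12739 to 16240 in hand-dissected MM and 61001 to 70762 in UB. With its highest sums in UB, this list does not separate renal vesicle from bud. The Gapdh 3' to 5' ratio was 14.3 to 22.9 in the captures and 22.1 to 69.3 in hand-dissected MM. That of Actb leaned the other way, at 14.8 to 20.9 and 11.1 to 17.9. The part of these in the members' differences was not tested.

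Over all probe sets tested between captured and hand-dissected MM, 16.3% were called higher and 8.51% lower. List genes could pass the filter on low signals through the group where they were high, so their counts are not independent of that. Of the claudin-associated membrane proteins, 9 of 11 tested were higher and none lower, led by Cdh1 (3.50 ± 0.50, SE) and Mal (3.24 ± 0.49). Of the epithelial regulators, 5 of 11 were higher and none lower, led by Esrp1 (5.34 ± 0.52). The repressor list had 2 lower of 7, Foxc2 (-0.81 ± 0.19) and Zeb1 (-0.63 ± 0.17). The call of Zeb1 was lost without MM replicate 5 or 7 (limma, adjusted p = 0.0663 and 0.0704) and without an intensity trend (0.0696), and in a joint fit of all 16 arrays both calls were lost (Zeb1 0.254, Foxc2 0.374). The wider tight junction list went both ways, with 7 of 40 higher, a share near that of all probe sets, and 8 lower, and its largest differences were those of Sympk (2.30 ± 0.29), Rab13 (1.41 ± 0.38) and Amotl1 (-1.41 ± 0.25). The call of Rab13 was lost without wild-type capture 2 (adjusted p = 0.0547).

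The third comparison asked whether loss of Hoxa11 and Hoxd11 went with a change of the members in captured MM. None of the 9 members was called, where 1.76% of all 23387 probe sets tested were (limma); 2 (Cldn8 and Cgn) had an unadjusted p under 0.05, and none was called in any of the 22 alternatives. The arrays of the groups overlapped for all 9, whereas 2.68% of all probe sets tested had every null array above, and 6.14% below, every wild-type array. The median log2 difference was -0.31 over the members and -0.15 over all probe sets tested. The groups also differ in the piece sectioned and possibly in pooling, which cannot be told apart from genotype, and they share the wild-type captures with the second comparison.

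Cldn8 had null signals of 75.1, 55.5, 54.6, 53.8 and 725.1. Of these, 4 lay below every wild-type capture, and replicate 5 lay within their range. Those 4 were dim, each below its own array's median, as was wild-type capture 3. The log2 difference was -1.83 ± 0.74 (SE, 95% interval -3.45 to -0.20; limma, adjusted p = 0.216), and without wild-type capture 3 it was -2.31 ± 0.76. Without null replicate 5 the gene no longer passed the filter on low signals.

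Cgn had null signals of 797.7, 244.3, 145.4, 163 and 637.1. Replicates 2, 3 and 4 were below all wild-type captures, and replicates 1 and 5 fell within their range. Null minus wild type was -1.22 ± 0.52 in log2 signal (SE, 95% interval -2.36 to -0.08; limma, adjusted p = 0.236). Leaving out null replicate 1 gave -1.53 ± 0.48 (limma, adjusted p = 0.0751), and leaving out wild-type capture 3 gave -1.50 ± 0.56 (limma, adjusted p = 0.283). The difference was -1.45 ± 0.53 without null replicate 5 (limma, adjusted p = 0.186). It shrank to -0.98 ± 0.52 without null replicate 3 (limma, adjusted p = 0.373).

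Ocln had 858.7, 285.1, 991.6, 177.7 and 5.3 in the nulls, and replicate 5, the brightest array for Cldn8, was the dimmest here. Null minus wild type gave a log2 difference of -1.07 ± 0.94 (SE, 95% interval -3.14 to 0.99; limma, adjusted p = 0.579). The difference was -0.36 ± 0.76 without null replicate 5, -1.46 ± 0.96 without null replicate 1 and -1.81 ± 0.91 without wild-type capture 3. The second Ocln probe set had null signals of 261.2, 1095.2, 218.7, 91.9 and 24.9, with replicate 2 the brightest and replicate 5 again the dimmest. It gave a log2 difference of -0.32 (limma, adjusted p = 0.843), while its mean signal was higher in the nulls (338 against 273).

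For the remaining claudins the intervals were wide. Cldn7 had null signals of 823.1, 2725.5, 1156.2, 707.8 and 4877.4, and its log2 difference was -0.54 (95% interval -1.97 to 0.90). It was -1.0 without wild-type capture 3, -0.03 without wild-type capture 2 and -0.94 without null replicate 5. Cldn3 had 713.5, 1348.5, 1225.8, 649.5 and 930.9, and its difference was 0.18 (-0.99 to 1.35), turning to -0.46 without wild-type capture 3. Its other tested probe sets gave 0.24 and 0.55, neither called, and its dimmest was not tested. Cldn4 had 162, 50.2, 134.1, 201.9 and 311.9, and its difference was -0.31 (-1.64 to 1.03), or -0.83 without wild-type capture 3 and -0.53 without null replicate 5. Cldn6 had 382, 512.6, 422.8, 482.9 and 1427.7, and its difference was 0.01 (-1.23 to 1.25), or -0.50 without wild-type capture 3 and -0.31 without null replicate 5. All adjusted p for the brightest probe sets of these 4 lay between 0.703 and 0.996 (limma). A 2-fold change in at least 1 direction lies inside each interval given.

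Tjp1 had null signals of 6890.8, 13143.2, 11630.5, 11914.2 and 8551.8 and a log2 difference of -0.29 (95% interval -0.75 to 0.17; limma, adjusted p = 0.489), which excludes a halving; without null replicate 1 it was -0.15. Tjp3 had 330.2, 93.8, 121.5, 239.5 and 278.6 and a difference of 0.03 (-0.98 to 1.03; limma, adjusted p = 0.982). The Tjp3 difference was -0.25 without wild-type capture 3, -0.14 without null replicate 1 and -0.08 without null replicate 5. Each of these null ranges reached into the wild-type range.

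Bud markers in the null captures are given beside these values. The 17 markers summed to 20724 to 58511 in the nulls, with a median log2 difference from wild type of -0.66. None of 17 was called (limma), where 1.76% of all probe sets tested were. The markers did not move together. Krt19 was at 118, 148, 32.7, 180 and 412% of the UB mean in null replicates 1 to 5. In the wild-type captures it was at 15.8 to 41.2%. Emx2 was at 1.08, 1.16, 1.46, 25.2 and 25.6% in the nulls and at 5.62 to 12.6% in the wild-type captures. The medians as a percentage of UB in null replicates 1 to 5 were 4.20, 3.97, 3.47, 3.09 and 7.68% for the 8 members and 10.1, 8.20, 4.07, 6.57 and 15.6% for the markers. Null replicate 5 was the brightest null for 4 of the 8 members and 11 of the 17 markers. It also held coelomic and gonadal transcripts that summed to 29355 over 9 genes, against 442.8 to 2565.6 in the other nulls, among them Amhr2, a receptor of gonadal mesenchyme, at 12360. Renal vesicle markers, whose sums were 61001 to 70762 in UB, summed to 34530 to 50880 in the nulls, above the 15954 to 33830 of the wild-type captures. Of 9 tested, 1 was called higher, where 1.76% of all probe sets tested were called in either direction. The part of these in the member values was not tested.

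Of the further tight junction and polarity genes, 41 were tested between null and wild type, and 3 were called, where 1.76% of all probe sets tested were. Of all probe sets tested, 2.68% had every null array above every wild-type array, and 6.14% had every null array below. Pard6g, a polarity adaptor, had 4187.8, 6714.7, 6578 and 6217.7 in wild type and 26359.7, 16016.8, 14501, 23181.2 and 17725.3 in the nulls, which do not overlap. This gave a log2 difference of 1.70 ± 0.21 (SE; limma, adjusted p = 0.00463), and the call was lost with the replicate number as a block (adjusted p = 0.0693). The adhesion molecule Jam3 was higher by 0.82 ± 0.17 (adjusted p = 0.0424) and the junctional GTPase Rab13 lower, at -1.41 ± 0.27 (adjusted p = 0.0347), and in both the arrays did not overlap. Leaving out any 1 wild-type capture lost the calls of Jam3 and Rab13, with adjusted p from 0.0887 to 0.154, and so did leaving out null replicate 2 or 3; for Jam3 null replicate 4 or 5 did too. The call of Rab13 was also lost under quantile, cyclic loess and median scaling (adjusted p 0.0555 to 0.150), and that of Jam3 under median centring (0.0597); both were lost with the replicate block (0.115 and 0.129).

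Across all 16 arrays, the log2 signals of the 8 members other than Tjp1 correlated with each other, with Pearson's r from 0.80 to 0.97 over 28 pairs. These points share the contrast of UB with mesenchyme, and over the 9 captures alone the median r was 0.52. There r ran from -0.09 (Ocln with Cldn7) to 0.87 (Cldn6 with Cldn7), and that of Ocln with the others reached at most 0.45 (Cldn3). Over the 16 arrays, the 8 pairs with Tjp1 had r from -0.17 to 0.21. The non-member genes with the most similar pattern, among 12978 searched over the 16 arrays, were Epcam (r = 0.97), Tfap2b (0.96) and St14 (0.96) for Cldn3, and Epcam (0.97), Krt8 (0.96) and Prss8 (0.96) for Cldn7. They were Tfap2a (0.98), Lad1 (0.97) and Itpr3 (0.96) for Cldn4, Septin4, Ezr and Doc2a (each 0.96) for Cldn6, and Cdh16 (0.98), Tmed6 (0.97) and Slc4a5 (0.97) for Cldn8. Ocln was followed most closely by Klc3 (0.96), Cystm1 (0.94) and Grik2 (0.93), Tjp3 by Krt7 (0.96), Cdh1 (0.95) and Pou3f3 (0.94), and Cgn by Ovol2 (0.97), Tmprss2 (0.97) and L1td1 (0.96). For Tjp1 they were Rab5a (0.95), Ubxn2a (0.94) and Cul4b (0.93), a set with no bud marker.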

How the data were processed

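Transcripts were measured on 16 Affymetrix mouse arrays, 1 per sample, after 2 rounds of amplification, per the labels' protocols. The deposited values are MAS5 signals (intensity, linear), per the submitters' processing notes; no source used here gives the version or detection calls. Read from the values, the authors scaled the deposited intensities to a trimmed mean (2% off each tail) of 1500.009 to 1500.011 on every array, which takes total expression as equal between samples. Two-round amplification starts at the 3' end, so a probe set far from it can read low.

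Without 64 controls there were 45037 probe sets, of which 34945 had 1 gene symbol, 932 several and 9160 none. Signals were converted to log2(signal + 36.3), the offset being the 25th percentile, with no further scaling. A probe set was kept where the number of arrays on which it exceeded the array's median reached the size of the smaller group. Each comparison was fitted on its own arrays with limma 3.58.1 in R 4.3.3 (lmFit, eBayes with trend), adjusted by the Benjamini-Hochberg method over all kept probe sets, at a threshold of 0.05; the procedure was tested on simulated data. SE is limma's moderated standard error and SD the spread between arrays. Python 3.11.15, pandas 2.3.3 and matplotlib 3.10.9 served for sequences and figures.

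The members, gene lists and marker lists were chosen with earlier results of these data known. Named were all 9 members, per member the 3 non-member genes of highest r, per list the called genes with the 3 largest differences, and other genes where a result turns on them. Cldn9, Grhl2, Cldn11, Cldn5 and Amhr2 fall under the last of these or were chosen after their values were seen. Alternatives were the offset, scaling, filter, variance model, array weights, a joint fit, the probe set, the mesenchyme arrays, the replicate block and leaving out each array. The labels do not say whether same-numbered replicates share a litter, and no slide or scan date was used, so no batch was tested. Replicates are separate embryos per the series text, which does not describe the pools.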

Additional observations from a re-analysis of the deposited data

Results flagged for a closer look

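In 27 groups of 4 or 5 arrays (9 members in 3 groups), 4 had 1 array far from the rest by Dixon's ratio of its gap to the whole range, on the log2 scale; chance gives about 1 in 20 such groups. Null capture 5 was the highest of the nulls for Cldn8 (725.1, ratio 0.901) and for Cldn6 (1427.7, ratio 0.783). UB replicate 1 was the lowest of the buds for Cldn7 (23476.3, ratio 0.8305) and for Tjp3 (514.2, ratio 0.850). No other array of a member's group passed the critical value; groups of 3 were not examined. Without UB replicate 1 the count of members higher in UB was still 8.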

How the results depend on the processing

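The count of members called between UB and hand-dissected MM was 8, stayed at 8 when any 1 array was left out and ran from 7 to 9 over 14 other settings. Between null and wild-type captures it was 0 throughout, also with the replicate block. The block takes null replicate 5, which has no partner, out of the estimate, and called 53 probe sets over the whole table, against 263 without that array and no block. Same-numbered captures did not deviate together (r from -0.05 to 0.07), so the numbers are not treated as pairs. Between captured and hand-dissected MM the count was 7, ran from 5 to 7 over 12 other settings, and from 4 to 7 with 1 array left out; the report names the members lost at 4. Tjp1 turned from lower to higher in UB against the captures (0.38) and against all 7 wild-type MM arrays (0.12), with the cause not tested. In the null comparison, signs turned for uncalled members near 0. Cldn6 went to -0.029 with the offset at the median, -0.074 with array weights and -0.31 with the replicate block. Tjp3 went to -0.18 with array weights and -0.085 with the block, and Tjp1 to 0.011 under median centring. With 1 array left out, Cldn6 ran from -0.50 to 0.47, Tjp3 from -0.25 to 0.24, Cldn4 from -0.83 to 0.15 (without wild-type capture 2) and Cldn3 from -0.46 (without wild-type capture 3) to 0.50; the cause was not tested.

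Median centring moved the median of all probe sets from 0.02 to 0.16 (UB), from -0.15 to 0.15 (null) and from 0.11 to -0.08 (captured), and the calls from 2952 higher and 2749 lower to 4022 and 2205, from 138 and 273 to 136 and 71, and from 3857 and 2009 to 2436 and 3197. Cyclic loess gave 164 and 196 for the null and 3207 and 2518 for the captured comparison, and quantile normalization gave 2925 and 2590 for the latter. All called probe sets ran from 3580 (joint fit) to 10132 (array weights) around 5701 for UB, from 53 to 1811 (without null replicate 1) around 411 for the null, where leaving out any 1 wild-type capture gave 60 to 78, and from 2812 (joint fit) to 8072 around 5866 for the captured comparison. The small number of arrays, dim signals in hand-dissected MM and the lack of detection calls limit the precision of the smaller differences.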

Other observations

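Cldn23 and Cldn9 varied between the null captures. Cldn23, which did not pass the filter on low signals and was not tested there, had signals of 1579.3, 56.1, 30.3, 318.7 and 97.7 in null replicates 1 to 5, against 16.1 to 69 in the wild-type captures. Cldn9 had 3943.9, 12260.2, 9571.7, 707.2 and 3874.5, against 1868.2 to 4889.9, and was not called (log2 difference 0.28 ± 0.68, SE; limma, adjusted p = 0.859). The null arrays lie above or within the wild-type range for Cldn23 and above, within and below it for Cldn9, and the brightest null differs between the genes.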
